A study of Homo sapiens with 6 samples.

Results

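Accessible regions deep inside the longest human protein-coding genes were compared between KDM6A knockout and wild-type cells of ARP1, a human multiple myeloma line. The peaks of all 6 ATAC-seq lists were merged wherever peaks shared at least 1 bp on chromosomes 1 to 22 and X. A merged region was taken when it lay inside a protein-coding gene of 500 kb or longer and more than 1 kb from both ends of every protein-coding gene, by RefSeq gene records on GRCh38. Bins of 1 Mb that held a mean of 60 or more peaks per list were left out. This gave 3922 of 75653 merged regions, in 303 of 314 such genes. The rule used lengths, positions and total peak density, and did not use the genotype.

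The study profiled open chromatin by ATAC-seq, in which a transposase cuts exposed DNA, to ask how KDM6A shapes DNA accessibility. There were 3 libraries labelled as KDM6A knockout (KO) ARP1 cells and 3 labelled as wild-type (WT) ARP1 cells, each numbered as a biological replicate, with no treatment named in the labels for either group. The labels do not say whether the replicates came from separate cultures or whether each genotype was 1 clone, so the tests measure only the spread between these libraries. In cell populations, fewer cells with an open region and weaker opening in every cell cannot be told apart.

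KDM6A, also called UTX, demethylates lysine 27 on histone H3, where Polycomb complexes place the mark, and works beside the KMT2C and KMT2D methyltransferases at enhancers. Very long genes consist almost wholly of introns, and many of them encode adhesion molecules, receptors and scaffolds of neurons. Several others coincide with common fragile sites, stretches that break under replication stress. Inside an intron an accessible region can be an enhancer, a start site of another transcript or neither, and ATAC-seq alone does not say which.

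The KO lists were shorter throughout. They held 33056, 37315 and 36056 peaks, against 54444, 54471 and 56049 in WT. The background pileup back-calculated from the fold values was 2.31 ± 0.257 in KO and 3.52 ± 0.357 in WT (SD, n = 3 each). The lowest fold enrichment that entered a list was 3.09 to 3.31 in KO and 2.72 to 2.92 in WT. List length and entry level therefore differed with genotype, and their part in the results was not tested beyond comparisons at equal list length, for which the 33055 peaks with the highest −log10 p were kept in each list. Of 10 plasma cell marker genes, 7 had a peak within 1 kb of a gene end in all 6 lists, including SDC1, TNFRSF17 and IRF4. The others were PRDM1, with one in 1 KO and 3 WT lists, JCHAIN, in 0 KO and 3 WT lists, and SLAMF7, in 0 KO and 2 WT lists. A gene end peak in all 6 lists was found for 3 of 5 neuronal markers (SNAP25, SYT1 and MAP2), 1 of 6 T cell markers (CD3E), 1 of 5 erythroid markers (KLF1), 0 of 5 epithelial markers and 0 of 6 myeloid markers, and no myeloid marker had one in any list. KDM6A itself had a gene end peak in 3 of 3 KO and 3 of 3 WT lists, which does not check the genotype, since the labels do not give the position of the lesion.

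A small class of the long-gene regions lay over start sites of other transcripts, and their sequences show the 2 extremes of what KO cells kept. The RefSeq start windows (250 bases before to 50 after a start, GRCh38.p14) overlapped 93 of the 3922 regions, by way of 119 windows. The 250 bases before the start are printed, on the strand of the transcript, for the 3 starts with the highest mean rank of −log10 p in the lists that held a peak among regions present in all 6 lists and for the 3 highest among WT-only regions, meaning those with a peak in all 3 WT lists and in no KO list. Capitals mark matches, on either strand, to the GC box GGGCGG, the CCAAT box CCAAT, the TATA box TATAAA or the AP-1 site TGANTCA.
Starts open in all 6 lists were an internal start of KLF12, a zinc finger transcription factor gene (13:74133930-74134179, minus strand), the lncRNA FGF14-AS2 inside FGF14, a growth factor homologue gene (13:102394328-102394577, plus strand), and an internal start of CAST, which encodes the calpain inhibitor calpastatin (5:96661787-96662036, plus strand).
KLF12: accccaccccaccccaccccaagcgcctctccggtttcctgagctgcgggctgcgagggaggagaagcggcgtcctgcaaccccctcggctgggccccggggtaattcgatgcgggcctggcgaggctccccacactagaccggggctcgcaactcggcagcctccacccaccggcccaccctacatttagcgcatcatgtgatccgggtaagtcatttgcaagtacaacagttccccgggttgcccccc
FGF14-AS2: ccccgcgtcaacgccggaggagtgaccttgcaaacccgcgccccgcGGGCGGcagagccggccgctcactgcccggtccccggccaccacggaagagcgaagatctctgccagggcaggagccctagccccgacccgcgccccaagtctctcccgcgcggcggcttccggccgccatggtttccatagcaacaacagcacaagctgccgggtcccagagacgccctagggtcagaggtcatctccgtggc
CAST: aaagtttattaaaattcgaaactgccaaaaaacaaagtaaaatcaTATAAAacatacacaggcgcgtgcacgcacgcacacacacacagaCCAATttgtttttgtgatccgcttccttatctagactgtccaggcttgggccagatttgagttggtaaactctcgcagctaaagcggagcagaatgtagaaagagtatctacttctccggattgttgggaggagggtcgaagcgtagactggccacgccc
WT-only starts were an internal start of TAFA2, which encodes a small secreted chemokine-like protein (12:62192774-62193023, minus strand), the lncRNA KCNMA1-AS1 inside KCNMA1, a calcium-activated potassium channel gene (10:76887794-76888043, plus strand), and an internal start of PPFIA2, which encodes the synaptic scaffold liprin-alpha-2 (12:81598372-81598621, minus strand).
TAFA2: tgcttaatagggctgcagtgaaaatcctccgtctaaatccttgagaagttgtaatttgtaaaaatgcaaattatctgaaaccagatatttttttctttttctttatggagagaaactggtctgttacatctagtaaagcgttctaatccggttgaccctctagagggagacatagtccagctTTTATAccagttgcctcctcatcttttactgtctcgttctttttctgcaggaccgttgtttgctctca
KCNMA1-AS1: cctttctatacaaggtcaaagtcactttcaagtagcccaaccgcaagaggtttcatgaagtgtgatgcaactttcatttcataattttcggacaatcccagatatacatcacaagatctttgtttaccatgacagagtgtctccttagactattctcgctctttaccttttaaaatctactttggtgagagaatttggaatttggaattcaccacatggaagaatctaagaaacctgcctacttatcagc
PPFIA2: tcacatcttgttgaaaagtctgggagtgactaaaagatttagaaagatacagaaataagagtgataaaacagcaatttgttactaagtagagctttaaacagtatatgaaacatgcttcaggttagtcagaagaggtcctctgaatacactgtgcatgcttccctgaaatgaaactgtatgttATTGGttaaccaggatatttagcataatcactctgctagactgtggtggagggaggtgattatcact

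These 6 windows differed in base composition, and their regions also differed in strength. The mean percentile of −log10 p was 96.8 at KLF12, 96.4 at FGF14-AS2 and 96.4 at CAST. It was 51.3 at TAFA2, 51.2 at KCNMA1-AS1 and 50.7 at PPFIA2. Composition was not compared at like strength. The share of G and C was 66.8% at KLF12, 70.8% at FGF14-AS2 and 45.2% at CAST, against 38.8% at TAFA2, 38% at KCNMA1-AS1 and 36.8% at PPFIA2. The GC box matched in FGF14-AS2 alone, a CCAAT box in CAST and PPFIA2, and a TATA box in CAST and TAFA2. The shares that follow cover the same 250 bases before the start of each window. Some windows overlap on the same region, so bases can count more than once. The 77 windows open in all 6 lists lay over 55 regions. GC content averaged 56.4% ± 13.9 (SD) in 77 windows over regions open in all 6 lists and 38.6% ± 2.9 in 7 windows over WT-only regions. In 35 windows over regions found in some of the lists it was 55.7% ± 13.7, close to that of the regions open in all 6. It was 46.5% in 789 windows inside long genes with no such region and 57.2% in all 34789 RefSeq windows. A GC box was found in 40.3% of the windows open in all lists, in 25.7% of those open in some and in 0 of the 7 WT-only windows, against 11.5% of those with no region and 42.6% of all RefSeq windows. The CCAAT box was found in 33.8% of the windows open in all lists, 28.6% of the WT-only windows and 32.0% of all windows, the TATA box in 13.0%, 42.9% and 10.8%, and the AP-1 site in 9.09%, 14.3% and 6.55%. With 7 WT-only windows these shares are a description, and a match is a run of letters, not a bound site.

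Regions over such starts were largely kept in KO cells. KO lists held 67, 69 and 63 peaks in them, and WT lists held 81, 84 and 83, so that the KO mean was 80.2% of the WT mean. In the other 3829 regions the KO mean was 42.3% of the WT mean. Of the start-bearing regions 59.1% had a peak in all 6 lists, compared with 18.2% of the others. WT-only calls were 7 of 71 start-bearing regions found in all 3 WT lists (9.86%, 95% Wilson interval 4.86 to 19.0%) and 577 of 1799 others (32.1%, 29.96 to 34.3%). All intervals given here cover counting error only. The start-bearing regions were also the stronger ones, with a median fold in WT of 10.1, against 7.31 for the others. They took 5.59% ± 0.388 of the long-gene peaks of KO lists and 3.02% ± 0.194 of those of WT lists (SD, n = 3 each). The groups did not overlap (exact two-sided permutation p = 0.1, the smallest that 3 against 3 libraries can give).

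Fewer peaks lay inside long genes in KO cells, and the deficit was deeper than elsewhere in the genome. KO lists held 1117, 1320 and 1138 peaks in the long-gene regions, against 2678, 2614 and 2937 in WT lists. The KO mean of 1192 ± 112 was 43.4% of the WT mean of 2743 ± 171 (SD, n = 3 each; exact two-sided permutation p = 0.1). By the same count KO lists reached 56.6% of WT inside shorter protein-coding genes, 53.7% outside genes and 94.6% within 1 kb of a gene end. Without the regions over RefSeq starts inside genes, KO lists held 42.3% of WT inside long genes and 53.1% inside shorter genes. Since all lists differ in length, the share of each list is the more direct comparison. Long-gene regions took 3.38%, 3.54% and 3.16% of the KO lists and 4.92%, 4.80% and 5.24% of the WT lists, a difference of -1.63 percentage points with no overlap (exact permutation p = 0.1). Per 100 peaks inside shorter genes there were 15.7 ± 0.803 long-gene peaks in KO and 20.5 ± 1.02 in WT, a ratio of 76.8% (exact permutation p = 0.1). Per 100 peaks outside genes there were 10.3 in KO and 12.7 in WT, a ratio of 81.0% (exact permutation p = 0.1). The length covered was 0.757 Mb in KO and 2.06 Mb in WT, since the KO peaks were both fewer and narrower, at a mean of 638 bp in KO and 749 bp in WT.

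The same was seen region by region. A peak in all 6 lists was found in 750 long-gene regions. Of 1870 regions with a peak in all 3 WT lists, 584 had none in any KO list, or 31.2% (95% Wilson interval 29.2 to 33.4%). Over all merged regions the same call was made for 17.3%, inside shorter genes for 22%, outside genes for 24.1% and at gene ends for 2.61%. The reverse was rare. Of 769 regions with a peak in all 3 KO lists, 5 were KO-only (0.650%), against 0.39% of all merged regions, 0.422% inside shorter genes, 0.491% outside genes and 0.0419% at gene ends. Each KO list taken alone kept 52.0%, 59.1% and 51.8% of the long-gene regions found in all 3 WT lists, and 61.2%, 67.8% and 62.7% of those inside shorter genes. WT-only regions were narrower and weaker than the lasting ones. Their median width was 790.5 bp and their median fold in WT lists 5.41, against 1233 bp and 11.3 for long-gene regions in all 6 lists.

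To compare regions of like strength, all merged regions found in all 3 WT lists were divided into 5 strata of about equal size by their mean rank of −log10 p within the WT lists. Before division the classes were alike in strength, with a median fold in WT of 7.41 inside long genes, 7.40 inside shorter genes and 7.29 outside genes. From the weakest stratum to the strongest, WT-only calls inside long genes made up 68.6%, 42.9%, 19.2%, 5.43% and 0% of the regions. Inside shorter genes they made up 53.6%, 30.8%, 9.64%, 1.89% and 0.180%, and outside genes 52.0%, 32.7%, 14.2%, 3.79% and 0.115%. In strata 1 to 4 the long-gene share was the highest of these classes. The strongest stratum held 214 long-gene regions, of which 95.3% had a peak in all 6 lists.

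**Figure D1:**
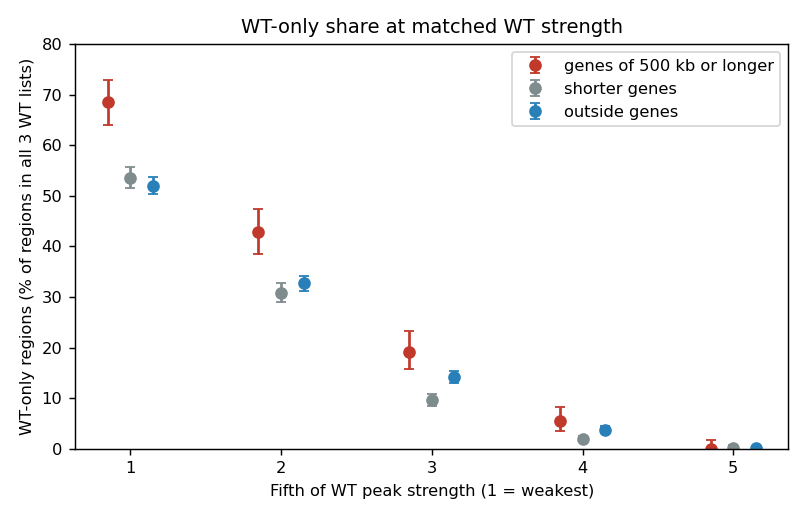
Share of regions found in all 3 WT lists that were WT-only, in percent with 95% Wilson intervals, by strength stratum from weakest to strongest, for long genes, shorter genes and regions outside genes. The long-gene share was 68.6% in the weakest stratum and 0% in the strongest.

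At equal list length the long-gene deficit remained, at a smaller size. KO lists then held 74.3% of the WT number inside long genes, 89.5% inside shorter genes, 93.9% outside genes and 106.1% at gene ends. Since every list then has the same total, fewer peaks in 1 class go with more in another. WT-only calls were 193 of 1222 long-gene regions (15.8%), against 7.24% of all merged regions, 9.58% inside shorter genes and 11.5% outside genes. KO-only calls were 21 of 766 long-gene regions (2.74%), against 3.82% of all merged regions, 3.20% inside shorter genes and 5.06% outside genes.

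The deficit was graded by gene length across all protein-coding genes and was deepest in the longest. In KO lists the number of peaks per list was 65.3% of WT inside genes under 50 kb, 58.4% for 50 to 100 kb, 55.7% for 100 to 200 kb, 50.6% for 200 to 500 kb, 45.1% for 500 to 1000 kb and 39.7% for 1000 kb or more. The last class comprised 69 genes, and its regions had 317, 375 and 333 peaks in KO lists and 850, 814 and 915 in WT lists. Its groups did not overlap, nor did those of any other class (unadjusted exact permutation p = 0.1 for each of the 6 classes). WT-only calls ran in parallel, from 17.1% under 50 kb to 29.0% for 500 to 1000 kb and 35.8% (Wilson 32.1 to 39.7%) for 1000 kb or more. The median fold in WT stayed between 7.19 and 7.55 over the 6 classes. At equal list length the same order held except between the classes of 200 to 500 kb and 500 to 1000 kb, which were level: 104.6%, 92.4%, 87.9%, 79.6%, 79.5% and 63.3%.

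**Figure D2:**
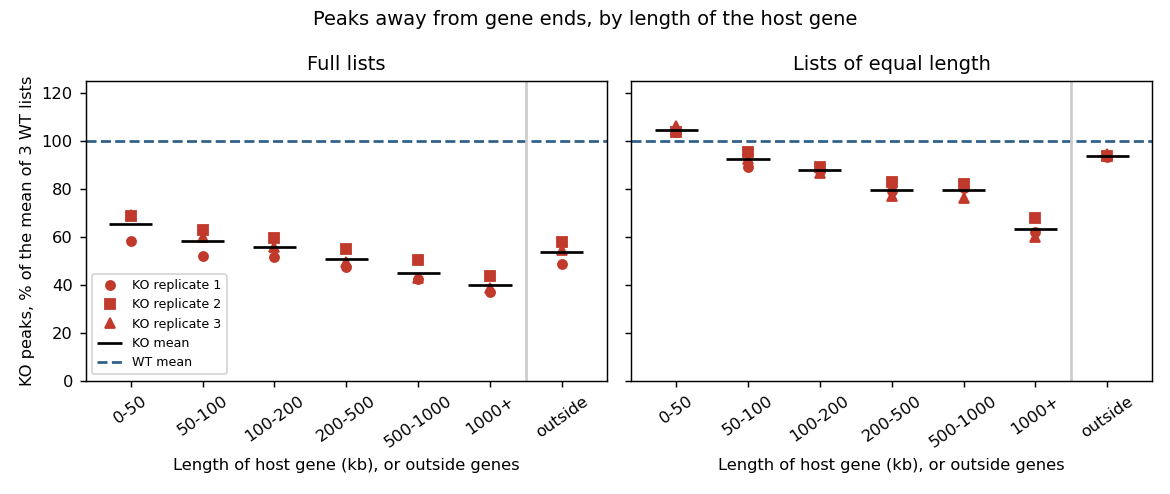
Peaks inside protein-coding genes by gene length class, each KO library as a percent of the WT mean, for the deposited lists and at equal list length, with regions outside genes for comparison. In the deposited lists the KO mean lies at 65.3% for genes under 50 kb and at 39.7% for genes of 1000 kb or more.

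Distance from gene ends goes with gene length, so it was taken apart from length. Long-gene regions lay a median of 179 kb from the nearest gene end, against 21.1 kb inside shorter genes and 75.7 kb outside genes. At 1 to 10 kb from an end, KO lists held 51.9% of WT inside long genes, 61.9% inside shorter genes and 56.9% outside genes. At 100 to 200 kb the values were 43.2%, 47.9% and 49.3%, and beyond 200 kb they were 40.2%, 43.3% and 53.1%. In all 5 distance classes the long-gene value was the lowest, though beyond 200 kb the shorter genes had only 108 regions. WT-only shares did not keep this order near gene ends: at 1 to 10 kb they were 15.9% inside long genes, 19.2% inside shorter genes and 20.2% outside genes. Beyond 200 kb they were 34.7%, 35% and 28.0%.

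Along the gene the KO percent of WT had no steady order. Each of the 262 long genes with a recorded strand was divided into 10 equal segments from its start. The KO percent of WT lay between 39.0% in segment 7 and 48.6% in segments 8 and 10. The regions themselves were spread along the gene, from 284 in segment 7 to 415 in segment 10.

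Long genes with open and with closed ends had near-equal KO percentages in the deposited lists. A gene end peak was found in all 6 lists for 121 long genes, in some lists for 33 and in none for 160. Open and closed refer to these ends only. KLF12, GPC6, TENM3 and CELF2 had no end peak, but each had an internal start over a region found in all 6 lists. Inside genes with open ends KO lists held 5.58 ± 0.595 peaks per Mb and WT lists 12.5 ± 0.701, or 44.7%. Inside genes with no end peak KO lists held 3.84 ± 0.370 and WT lists 8.65 ± 0.551, or 44.4% (SD, n = 3 each). The ratio of open to closed genes was 1.45 in KO and 1.44 in WT (exact permutation p = 0.8), whereas at equal list length it was 87.6% of the WT ratio in KO (exact permutation p = 0.1). Long genes with end peaks in some lists stood lower, at 4.85 peaks per Mb in KO and 13.4 in WT, or 36.3%.

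Gene by gene, the KO range of peak counts lay wholly below the WT range in 223 of the 303 long genes with a region, or 73.6%. The background was 26.2% over all 7614 protein-coding genes with a region and 24.2% over those under 500 kb, most of which hold few regions. Among genes with 8 or more regions it was 180 of 202 long genes (89.1%) and 333 of 437 shorter genes (76.2%). The KO range lay above in 1 long gene (0.33%), against 0.302% of all genes and 0.301% of genes under 500 kb. Among genes with 8 or more regions it was 0 of 202 long genes and 1.6% of shorter ones. The ranges overlapped in 79 long genes. At equal list length the KO range was below in 98 of 293 long genes (33.4%), against 9.7% of all protein-coding genes with a region and 8.52% of those under 500 kb. It was above in 10 long genes (3.41%), against 2.97% of all genes and 2.95% of those under 500 kb. At equal list length the comparison was not made among genes with 8 or more regions, so number of regions and gene length are not separated there.

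**Figure D3:**
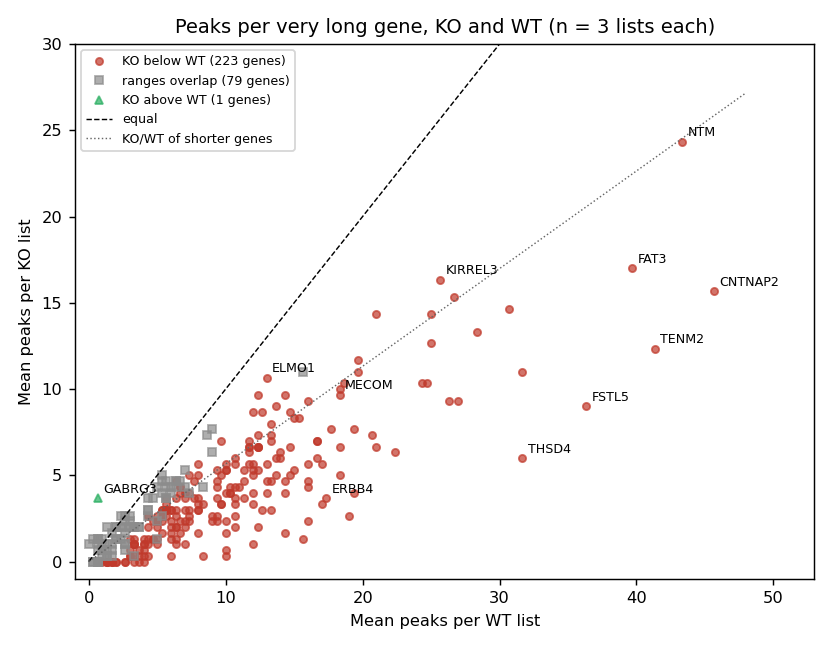
Mean peaks per KO list (vertical) against mean peaks per WT list (horizontal) for each of the 303 long genes with a region, coloured by whether the KO and WT ranges of the 3 libraries were separate. The dashed line marks equality and the dotted line the KO to WT ratio of shorter genes. Most points lie under the line of equality, and GABRG3, at 3.67 in KO and 0.667 in WT, is the gene above it with separate ranges.

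Genes of synapses and neuronal adhesion made up the largest of 4 gene lists, with 51 long genes. KO lists held 228, 273 and 251 peaks in them and WT lists 555, 537 and 634, or 43.6%, close to the 43.5% of all long genes counted gene by gene. WT-only calls were 134 of 397 regions (33.8%), near the 31.2% of all long-gene regions. Separate lower KO ranges were found in 36 of the 50 genes with a region, near the 73.6% of all long genes, and 1 gene was above. In 33 of the 51 no list had a gene end peak.

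TENM2, a teneurin that binds latrophilins across the synapse, had the most WT-only regions of any long gene. It held 10, 13 and 14 peaks in KO lists, against 42, 38 and 44 in WT lists, and 13 of its 28 regions found in all 3 WT lists were WT-only. The highest KO list was at 14 and the lowest WT list at 38. All genes of this paragraph are among the 8 named for most WT-only regions. Lower KO counts in them therefore follow in part from that choice. CNTNAP2, a neurexin-related protein that clusters potassium channels on axons, had 17, 16 and 14 peaks in KO and 50, 41 and 46 in WT, with 11 WT-only regions. Its gene ends were open in all 6 lists, unlike those of TENM2, which had an end peak in 1 WT list. NTM, the immunoglobulin-domain adhesion protein neurotrimin, had 22, 24 and 27 peaks in KO and 43, 40 and 47 in WT, but at equal list length the means were 23.3 in KO and 23 in WT. NTM had 12 WT-only regions and 18 in all 6 lists, so that shared and WT-only regions lay side by side in 1 gene. LRRC4C, a netrin-G ligand of the postsynaptic side, had 9, 12 and 7 peaks in KO and 26, 26 and 29 in WT. At equal list length LRRC4C still averaged 8.67 in KO and 22 in WT. PCDH15, a protocadherin of hair cell tip links, had 8, 7 and 4 peaks in KO and 21, 22 and 24 in WT. CDH13, a cadherin held by a lipid anchor, had 5, 6 and 9 peaks in KO and 22, 19 and 22 in WT, with 10 WT-only of 16 regions. In both cadherin genes the lists did not overlap, and neither had a gene end peak in any list.

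Other long genes, named for their number of regions or of WT-only regions and not as a group of like function, had fewer peaks in KO to unequal degrees. ERBB4, a receptor tyrosine kinase for neuregulins, had 4, 4 and 3 peaks in KO and 17, 16 and 19 in WT, or 21.2%. Its gene ends had a peak in all 3 WT lists and in no KO list, and at equal list length its mean was 3.67 in KO and 12.3 in WT. THSD4, which encodes a microfibril-binding protein of the ADAMTS-like family, had 5, 6 and 7 peaks in KO and 30, 32 and 33 in WT. That was 18.9%, and at equal list length the means of THSD4 were 5.33 in KO and 8.33 in WT. GPC5, a glypican, had 8, 13 and 12 peaks in KO and 29, 28 and 38 in WT. FSTL5, a secreted follistatin-like protein, had 8, 9 and 10 peaks in KO and 33, 32 and 44 in WT, and SPOCK3, the proteoglycan testican-3, had 7, 12 and 12 in KO and 24, 25 and 25 in WT. GALNTL6, a relative of the enzymes that start O-glycan chains, had 10, 10 and 8 peaks in KO and 27, 24 and 28 in WT. DLG2, a postsynaptic scaffold, had 14, 15 and 15 peaks in KO and 31, 28 and 33 in WT.

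**Figure D4:**
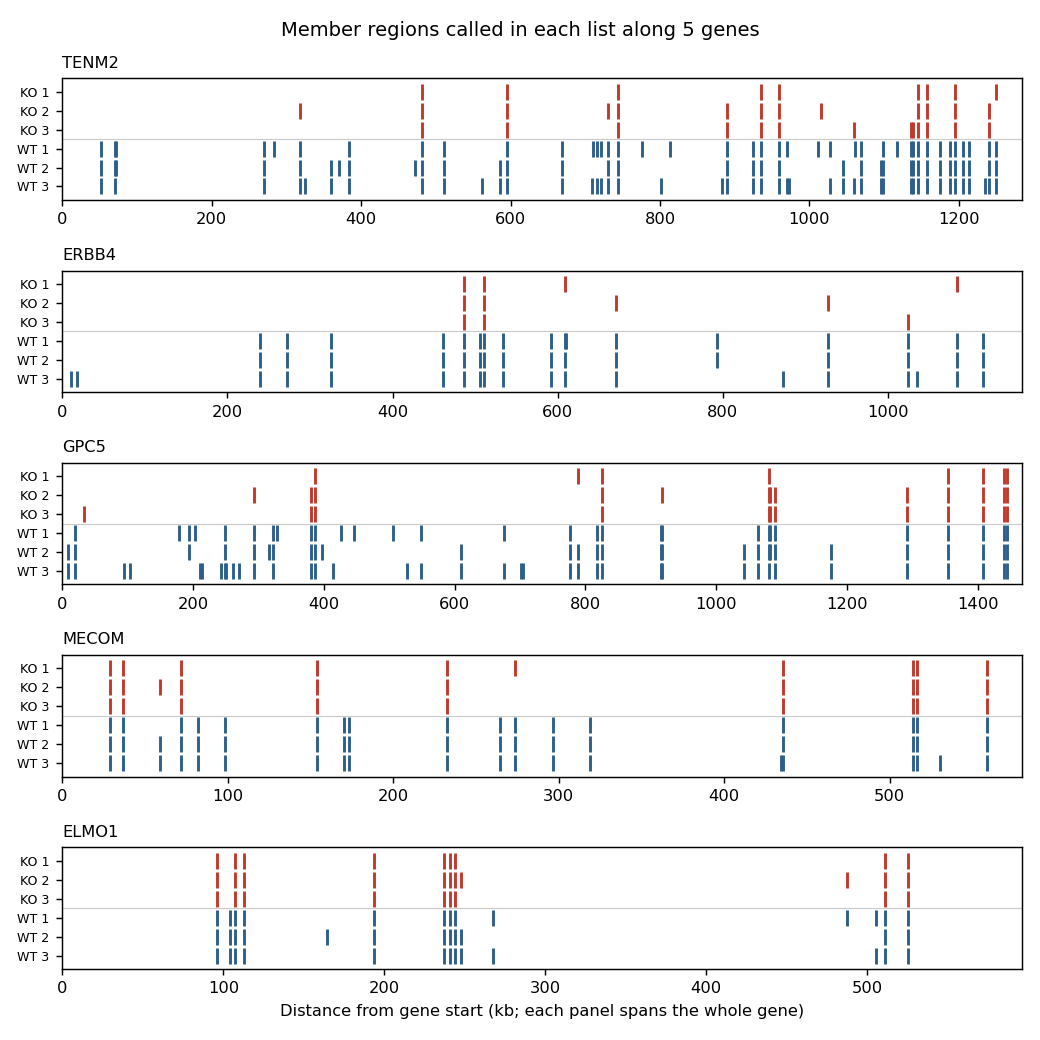
Regions along TENM2, ERBB4, GPC5, MECOM and ELMO1 by distance from the gene start in kb, with the peaks of each library on a row of its own, KO rows above WT rows. In TENM2 and ERBB4 most positions carry peaks in WT rows alone, whereas in ELMO1 9 of 15 regions carry one in all 6 rows.

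Of the genes with most regions per Mb, GRM5 and TMEM117 lay partly in bins that were left out, whereas FAT3 and KIRREL3 kept their full length. FAT3, a giant atypical cadherin, had the most regions of all, 105, with 14, 22 and 15 peaks in KO and 43, 31 and 45 in WT. Only 6 of those regions had a peak in all 3 WT lists, and at equal list length the order turned, to a mean of 13.3 in KO against 2.67 in WT. Of the bins with long-gene regions that were used, the densest held a mean of 53 peaks per list (in GRM5), 45.7 (in FSTL5) and 41.8 (in FAT3), under the limit of 60. Of those left out, the nearest to the limit held 60.3 (in GRM5), and others held 75.7 (in MARCHF1) and 92.3 (in TMEM117). TMEM117 had 17, 15 and 11 peaks in KO and 22, 18 and 23 in WT, and KIRREL3, a synaptic adhesion protein, had 16, 17 and 16 in KO and 23, 28 and 26 in WT. Both turned to higher KO means at equal list length. GRM5, a glutamate receptor, kept only 0.0660 Mb after the filter, with 1, 0 and 1 peaks in KO and 3, 2 and 7 in WT.

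The gene length limit also has neighbours: 14 genes were within 10 kb above it and 13 within 10 kb below, the longest shorter gene measuring 498.346 kb.

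Genes of common fragile sites stood close to long genes in general. The 26 of the listed genes that were long enough held 152, 173 and 150 peaks in KO and 375, 352 and 382 in WT, or 42.8%. WT-only calls were 88 of 271 (32.5%), near the 31.2% of all long-gene regions, with 17.3% over all merged regions. Separate lower KO ranges were found in 23 of the 26 genes, against 73.6% of all long genes with a region and 89.1% of those with 8 or more regions. FHIT, a nucleotide hydrolase at the fragile site FRA3B, had 3, 7 and 4 peaks in KO and 9, 14 and 11 in WT. WWOX, an oxidoreductase at FRA16D, had 5, 4 and 5 in KO and 11, 9 and 8 in WT. The groups of FHIT and of WWOX did not overlap, and both genes had open ends in every list. DMD, the dystrophin gene, had 3, 5 and 4 peaks in KO and 12, 9 and 15 in WT. IMMP2L, a mitochondrial peptidase subunit, had 8, 9 and 6 in KO and 16, 16 and 21 in WT. LRP1B, an LDL receptor relative, had few regions, with 0 peaks in every KO list and 3, 2 and 3 in WT. MACROD2, an ADP-ribose hydrolase, overlapped, with 5, 8 and 6 in KO and 10, 7 and 10 in WT. Outside that list, PTPRD, a receptor tyrosine phosphatase, had 6, 7 and 5 peaks in KO and 15, 16 and 19 in WT. CSMD1, a membrane protein with complement-control domains, had 6, 10 and 10 in KO and 11, 16 and 17 in WT. RBFOX1, a neuronal splicing factor in none of the 4 lists and the longest gene of all, had 1, 2 and 3 in KO and 3 in each WT list.

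Genes used in blood and lymphoid cells had the highest KO percent of the 4 lists. The 12 long genes of that list held 79, 96 and 76 peaks in KO and 146, 135 and 161 in WT, or 56.8%, and 23 of 111 regions were WT-only (20.7%, Wilson 14.2 to 29.2%), against 31.2% of all long-gene regions and 17.3% of all merged regions. The KO range was below in 11 of the 12, against 73.6% of all long genes with a region and 89.1% of those with 8 or more regions. Ends of 9 of the 12 genes were open in all 6 lists. ELMO1, which joins DOCK proteins to activate Rac, had 10, 12 and 10 peaks in KO and 13, 13 and 13 in WT, and 9 of its 15 regions were in all 6 lists. At equal list length ELMO1 averaged 10 in KO and 9.33 in WT. FOXP1, a forkhead factor of B cells, had 7, 10 and 12 peaks in KO and 16, 13 and 14 in WT. LPP, a LIM domain protein, had 10, 9 and 7 in KO and 13, 11 and 12 in WT. These genes lay just apart, by 1 peak in FOXP1, in LPP and in ELMO1. MECOM, a zinc finger regulator of blood stem cells, was more divided, with 10, 10 and 9 peaks in KO and 17, 18 and 20 in WT: 9 regions were in all 6 lists and 7 were WT-only. ZBTB20, a zinc finger factor needed for long-lived plasma cells in mice, had 7, 8 and 6 in KO and 15, 13 and 22 in WT. Of the phosphodiesterases that break down cyclic AMP, PDE4B had 5, 7 and 4 peaks in KO and 8, 9 and 11 in WT. PDE4D had 13, 13 and 12 in KO and 27, 23 and 25 in WT. AFF3, a nuclear protein of lymphoid cells, had few regions, with 3, 3 and 1 peaks in KO and 5, 4 and 5 in WT.

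Genes of general cell functions stood between, at 93, 117 and 85 peaks in KO and 200, 209 and 212 in WT over 23 long genes, or 47.5%, with 38 of 148 regions WT-only (25.7%, against 31.2% of all long-gene regions). The KO range was below in 18 of the 23 genes, against 73.6% of all long genes with a region. EXOC4, a subunit of the exocyst that tethers secretory vesicles, had 5, 6 and 4 peaks in KO and 12, 15 and 14 in WT. SMYD3, a lysine methyltransferase, had 4, 8 and 5 in KO and 13, 19 and 19 in WT. RAD51B, which acts in homologous recombination, had 2, 4 and 2 in KO and 8, 8 and 6 in WT. GPHN, the receptor-clustering protein gephyrin, overlapped, at 3, 5 and 3 in KO and 5, 4 and 4 in WT. The lists share genes with each other, FHIT, IMMP2L and DPYD among them, and were chosen with results of these data known, so their differences are descriptions.

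**Figure D5:**
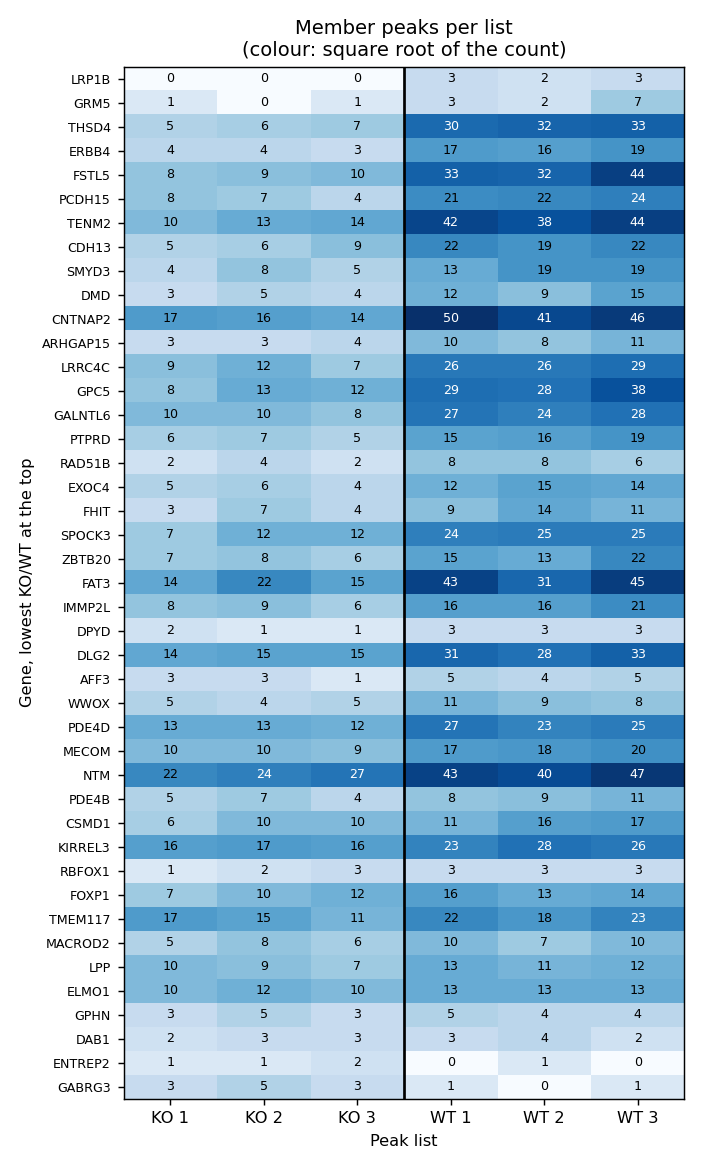
Peaks per library for the named long genes, KO columns left of WT columns, with the number in each cell. Rows such as ERBB4 (3 to 4 in KO, 16 to 19 in WT) contrast with ELMO1 (10 to 12 in KO, 13 in WT).

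The strongest long-gene regions were present in both genotypes. By mean percentile of −log10 p within each list the highest lay in ANK2, which encodes an ankyrin (4:113355032-113356620), at folds of 25.3, 30.8 and 25.5 in KO lists and 42.3, 52.7 and 48.2 in WT lists. Folds are the authors' values for a peak against its own library's background, so folds from different lists are not compared. By −log10 p this peak stood at percentiles 97.1, 98.1 and 97.6 in KO and 99.5, 99.5 and 99.7 in WT. The next lay in CDK14, a cyclin-dependent kinase gene (7:90931489-90933585), GPC5 (13:92224056-92225470), NBAS, a gene of Golgi-to-ER transport (2:15176371-15179371), and SYNE1, which encodes the nuclear envelope protein nesprin-1 (6:152301454-152302657). The mean percentile was 97.9 in CDK14, 97.3 in GPC5, 97.2 in NBAS and 97.0 in SYNE1. All 5 lay at least 27.1 kb from a gene end, and the one in GPC5 641.8 kb.

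Some WT-only regions ranked high in their lists. The highest WT-only region lay in LRRC4C (11:41039333-41040762), at folds of 11.5, 15.6 and 18.2 in WT lists and percentiles of 78.8, 83.0 and 91.1 within them. Others lay in FRMPD4, a scaffold of dendritic spines (X:12142510-12143550; mean percentile 83.7), TENM2 (5:168191589-168193083; 80.8), ERBB4 (2:212212766-212213819; 79.3) and NAV2, a microtubule-associated neuron navigator (11:19659629-19660813; 77.7). No KO list had a peak at any of them.

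The 5 KO-only regions lay in 5 different genes and were of middle rank. In ARHGAP15, a GTPase-activating protein for Rac in blood cells (2:143720133-143721004), the folds were 9.33, 9.83 and 7.58 in KO lists, a mean percentile of 64.5. The gene as a whole went the other way, with 3, 3 and 4 peaks in KO and 10, 8 and 11 in WT, including 4 WT-only regions. In GABRG3, a GABA receptor subunit (15:27028789-27029671), folds were 6.62, 7.87 and 6.45, a mean percentile of 50.3. GABRG3 was also the gene with the KO range above, at 3, 5 and 3 peaks in KO and 1, 0 and 1 in WT. The others lay in FAT3 (11:92321724-92322790), ENTREP2 (15:29631262-29631913) and DAB1, a Reelin pathway adaptor (1:57410855-57411863), at mean percentiles of 46.5, 40.4 and 40.3. ENTREP2 had 1, 1 and 2 peaks in KO and 0, 1 and 0 in WT, and DAB1 had 2, 3 and 3 in KO and 3, 4 and 2 in WT.

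Of the 11 long genes with no region, MARCHF1 lay wholly in left-out bins, and the longest of the others were PTPRT, LRRTM4, CDH4, SHISA9 and CLSTN2, of which none had a gene end peak in any list.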

How the data were processed

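ATAC-seq peaks of 3 KO and 3 WT libraries of ARP1 cells were analysed. Per the labels' protocols, libraries were sequenced as paired reads of 150 bp. Per the submitters' processing notes, the tools include Trimmomatic, Bowtie2 and MACS2 2.1.2, with GRCh38. The authors deposited 1 peak list per library, so replicates were not pooled. In the deposited lists each peak has a fold enrichment (a ratio), a −log10 p, a −log10 q and a score. No read counts were used, so depth is known only through list length and the background pileup, back-calculated from the step between fold values.

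Peaks were merged and classed with Python 3.11.15 and pandas 2.3.3, with RefSeq genes of GRCh38.p14. Members and gene lists were chosen with earlier results of these data known. A peak was counted in the class of its merged region. Genes were named as 25 listed genes, the 10 long genes with most regions, the 8 with most regions per Mb, the 8 with most WT-only regions, those with a KO-only region and the longest with none; regions by mean percentile of −log10 p. A gene that the rule names is not reported here. Genotypes were compared by exact two-sided permutation over 20 labellings. The computation was tested on simulated data.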

Additional observations from a re-analysis of the deposited data

How the results depend on the processing

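Long-gene peaks stayed lower in KO under every setting tried. Leaving out 1 library at a time, the KO percent of WT was 41.1 to 44.8, WT-only regions 645 to 805 and 34.5 to 39.4%, KO-only regions 5 to 12, genes with separate ranges 227 to 240, and the open to closed ratio 98.2 to 103.5%. Numbers of called regions and of genes with separate ranges tend to rise by construction here, since fewer lists have to agree. At equal list length there were 193 WT-only (15.8%) and 21 KO-only regions and 98 genes with separate ranges, and the open to closed ratio was 87.6%. That ratio also passed below 100% at a −log10 q of at least 5 (98.0%), at a fold of at least 4 (96.7%) and with no bins left out (98.2%). WT-only regions were 28.5% at a fold of at least 4. With genes from 300 kb there were 1027 WT-only (28.7%) and 8 KO-only regions and 498 genes with separate ranges; from 1000 kb there were 219 (35.8%), 1 and 54. Counting a peak only where it covered 50% of the region, chosen after seeing the data, gave 47.2% WT-only and 3 KO-only regions. Turning was followed for the classes and for the named genes with separate ranges. Those that turned at equal list length were genes under 50 kb (104.6%), ELMO1 (107%), FAT3 (500%), NTM (101%), TMEM117 (272%) and KIRREL3 (107%). At a fold of at least 4 they were FAT3 (120%) and TMEM117 (114%). Named genes with overlapping ranges were not followed in this way. Among them, DAB1 ran from 76.2 to 106.7% when 1 library was left out at a time. The causes were not tested. Of 38 named genes with separate ranges, 20 kept them at equal list length. Replicate numbers did not pair the libraries, with correlations of 0.0159, 0.00110 and -0.157 between same-numbered libraries. With the replicate block the long-gene percent was 43.7 (exact p = 0.25, the smallest possible). The planned 50% overlap for merged regions gives the 1 bp result by construction. Differing list lengths and entry levels limit what absence from a KO list means, and a region under the entry level may be open.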

Other observations

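Several genes outside the naming rule were chosen after their values were seen. TAFA2 had 1, 0 and 0 peaks in KO and 11, 9 and 10 in WT, with 8 WT-only regions, although its gene ends were open in all 6 lists. ATRNL1, an attractin-like membrane protein gene, had 1, 0 and 0 in KO and 9, 7 and 9 in WT. DGKB, a diacylglycerol kinase, had 1, 3 and 0 in KO and 15, 14 and 18 in WT. At the other end, MAGI1, a scaffold of cell junctions, had 5 peaks in each KO list and 5, 6 and 5 in WT, and CACNA1C, a calcium channel subunit, had 8, 7 and 8 in KO and 9, 8 and 10 in WT.

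Hairpins of 5 miRNAs lay in long-gene regions. The region of MIR6073 in SOX6 had a peak in all 6 lists, while those of MIR3167 in KIRREL3 and MIR12125 in TENM2 were WT-only, and the other 2 had peaks in some lists. By chromosome, the KO percent of WT ran from 32.9% on chromosome 15 to 58.3% on chromosome 14 among those with more than 10 regions, and on chromosome 22, with 10 regions, KO lists held 3, 5 and 8 peaks and WT lists 6, 5 and 4.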
